A study of Mus musculus with 72 samples.

Results

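The 77 genes described here encode proteins of the mitochondrial ribosome, named Mrpl for the large and Mrps for the small subunit. They were chosen by name: symbols starting with Mrpl or Mrps and a digit, without pseudogene names, with a mean of at least 1 CPM, a count scaled to its library's total, over the 52 RNA libraries. Of 78 such symbols among the 55487 genes of the count table, 77 passed: 48 Mrpl and 29 Mrps. Mrpl53 was left out with 0 counts in all libraries, where 88.0% of its annotated exon bases lie in exons of another gene. By the known structure of the particle 50 members sit in the large subunit and 26 in the small one, since Mrps30 and Mrps18a are built into the large subunit. Mrps36 belongs to neither, as its protein is a part of the 2-oxoglutarate dehydrogenase complex.

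The mitochondrial ribosome translates the few proteins that mitochondrial DNA encodes, all of them membrane parts of the respiratory chain and ATP synthase. Its RNAs are made in the matrix, but every one of its proteins is encoded in the nucleus, made in the cytosol and imported. Resting T cells keep little mitochondrial mass, and activated T cells build mitochondria as they grow and divide. Glutamine feeds that growth as a source of carbon and nitrogen.

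The samples are labelled CD8+ T cells and come from splenocytes of OT-I mice, cleared of red cells and activated in culture. OT-I is a transgenic line with 1 T cell receptor, specific for a peptide of ovalbumin, SIINFEKL. Every activated culture received SIINFEKL at 10 ng/mL and recombinant human IL-2 at 100 IU/mL. It was further given CB-839, which blocks glutaminase, or DON, an analog of glutamine that inactivates many enzymes using it (each at 1 µM), medium made without glutamine, or vehicle, and was sampled at 4, 24 and 48 h. Unstimulated cells were the baseline, which makes 13 groups of 4 libraries, A to D. One vehicle group per time serves all 3 treatments, so their comparisons share those libraries. The labels do not say whether the letters stand for separate mice, so the p-values speak of the spread among these libraries, which may be technical. At 48 h, CUT&RUN for the histone marks H3K27ac and H3K27me3 was deposited as 1 merged peak list per condition and mark.

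Libraries held 25626587 to 51005409 counts, and all 8 CD8 T cell marker genes were detected in every group. Their summed CPM was lowest in the glutamine-free 4 h libraries, at 1654 to 2154, and highest in unstimulated cells, at 3988 to 4365. Summed B cell markers (7 genes) spanned 18.6 to 338.8 CPM in the glutamine-free 4 h libraries and 24.5 to 135.9 CPM in vehicle 4 h libraries. Summed myeloid markers (8 genes) spanned 21.7 to 23.4 CPM with DON at 48 h and 2.6 to 3.53 CPM with vehicle at 48 h. Their part in the results was not tested. Library C of the 48 h vehicle group stood apart from its 3 partners, so the counts that rest on it are given without it too, with the values of named members that moved by over 1.5 times or changed their call. In bulk RNA, fewer cells of a type and less RNA per cell cannot be told apart. Genes of the mitochondrial genome, whose RNAs this ribosome translates, had 0 counts in every library of the filtered alignments, so nothing can be said of them.

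Promoter sequences are shown for 6 members on which the later results turn, to let the reader compare their start regions. Each is the RefSeq window of 250 bases before to 50 bases after the gene's start on GRCm38.p6, read along the gene's strand. Mrpl17 (chr7:105811038-105811337, minus strand), a large-subunit protein, and Mrps18a (chr17:46110754-46111053, plus strand), the S18 relative of the large subunit, each hold matches to more than 1 of the motifs searched. Mrps11 (chr7:78782881-78783180, plus strand) and Mrpl46 (chr7:78783040-78783339, minus strand) are neighbours transcribed away from each other, with RefSeq starts 42 bases apart. Mrpl12 (chr11:120484387-120484686, plus strand) and Mrpl55 (chr11:59202236-59202535, plus strand) are the members with the highest level and with the deepest fall under DON. Capitals mark matches to CCGGAAG (ETS family), GCGCATGC (NRF1), AAGATGGCG (YY1) or CACGTG (E box) on either strand.
Mrpl17: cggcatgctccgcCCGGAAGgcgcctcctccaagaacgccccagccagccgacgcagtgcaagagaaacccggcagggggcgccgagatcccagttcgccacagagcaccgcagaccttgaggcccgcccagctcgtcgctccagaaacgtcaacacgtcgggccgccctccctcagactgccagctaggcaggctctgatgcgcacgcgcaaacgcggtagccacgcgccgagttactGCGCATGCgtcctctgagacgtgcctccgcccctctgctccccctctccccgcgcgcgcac
Mrps18a: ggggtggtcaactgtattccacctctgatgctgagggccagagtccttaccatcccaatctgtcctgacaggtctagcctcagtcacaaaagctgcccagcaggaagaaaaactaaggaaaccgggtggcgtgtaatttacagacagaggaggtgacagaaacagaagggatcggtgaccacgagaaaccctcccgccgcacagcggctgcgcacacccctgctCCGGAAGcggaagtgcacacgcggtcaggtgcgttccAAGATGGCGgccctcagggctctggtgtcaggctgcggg
Mrps11: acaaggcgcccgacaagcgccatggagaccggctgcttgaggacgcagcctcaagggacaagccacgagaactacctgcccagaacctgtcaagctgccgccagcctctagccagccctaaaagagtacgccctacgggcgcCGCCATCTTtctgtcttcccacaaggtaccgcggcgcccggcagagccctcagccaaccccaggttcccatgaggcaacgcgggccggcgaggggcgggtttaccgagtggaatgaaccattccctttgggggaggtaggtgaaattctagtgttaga
Mrpl46: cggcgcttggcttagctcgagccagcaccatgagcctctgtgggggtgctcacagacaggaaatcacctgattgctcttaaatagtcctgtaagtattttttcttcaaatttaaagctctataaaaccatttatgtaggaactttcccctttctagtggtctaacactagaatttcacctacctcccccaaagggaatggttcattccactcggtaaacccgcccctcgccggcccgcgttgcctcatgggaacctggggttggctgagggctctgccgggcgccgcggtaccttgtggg
Mrpl12: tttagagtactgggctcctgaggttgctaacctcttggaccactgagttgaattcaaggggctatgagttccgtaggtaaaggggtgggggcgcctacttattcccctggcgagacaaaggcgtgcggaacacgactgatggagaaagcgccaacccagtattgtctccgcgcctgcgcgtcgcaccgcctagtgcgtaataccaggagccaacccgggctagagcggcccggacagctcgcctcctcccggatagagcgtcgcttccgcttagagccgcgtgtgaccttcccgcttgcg
Mrpl55: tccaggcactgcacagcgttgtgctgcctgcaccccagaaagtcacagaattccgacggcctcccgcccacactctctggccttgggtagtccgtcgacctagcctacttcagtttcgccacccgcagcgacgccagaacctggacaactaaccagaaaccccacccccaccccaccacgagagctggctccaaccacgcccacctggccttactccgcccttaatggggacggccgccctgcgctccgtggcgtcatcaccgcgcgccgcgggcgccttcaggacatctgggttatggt

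RefSeq windows were matched for 68 of the 77 members, and a symbol was counted where any of its windows held the letters on either strand. CCGGAAG was present for 25 of 68 members (36.8%), against 9.93% of the 27025 symbols in the promoter table. GCGCATGC was present for 8 members (11.8%, against 3.05%), Mrpl17, Mrpl9 and Mrps18b among them, and AAGATGGCG for another set of 8 (11.8%, against 1.64%). At least 1 of these 3 strings was found for 35 of 68 members (51.5%), against 13.6% of all symbols. Unlike the members, those symbols were not limited to genes expressed in these cells, and the share among expressed genes was not computed. The CACGTG E box was found for 5 members (7.35%, against 8.09%), and TTGCATCA, a form of the ATF4 element, for 0 of them (against 1.03%). GGGGCGGGG was present for 13 members (19.1%, against 12.9%) and CCAAT for 26 (38.2%, against 41.1%). A match is a description of the letters in the window, and its absence says nothing about a factor.

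Activation brought the largest shift in these genes. Summed over all 77 genes, the members made up 2374 ± 133 CPM in unstimulated cells, 4632 ± 270 CPM in vehicle cells at 4 h, 6386 ± 186 CPM at 24 h and 6803 ± 875 CPM at 48 h (SD, n = 4 each). The 4 unstimulated libraries lay between 2223.5 and 2523.5 CPM, below every activated library. Summed by symbol, the Mrpl and the Mrps genes were 1.97 and 1.91 times those of unstimulated cells at 4 h, and 2.92 and 2.75 times at 48 h (2.74 and 2.58 without library C). As a share of all counts, the members took 0.62% in vehicle cells at 48 h and 0.272% in unstimulated cells.

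**Figure D1:**
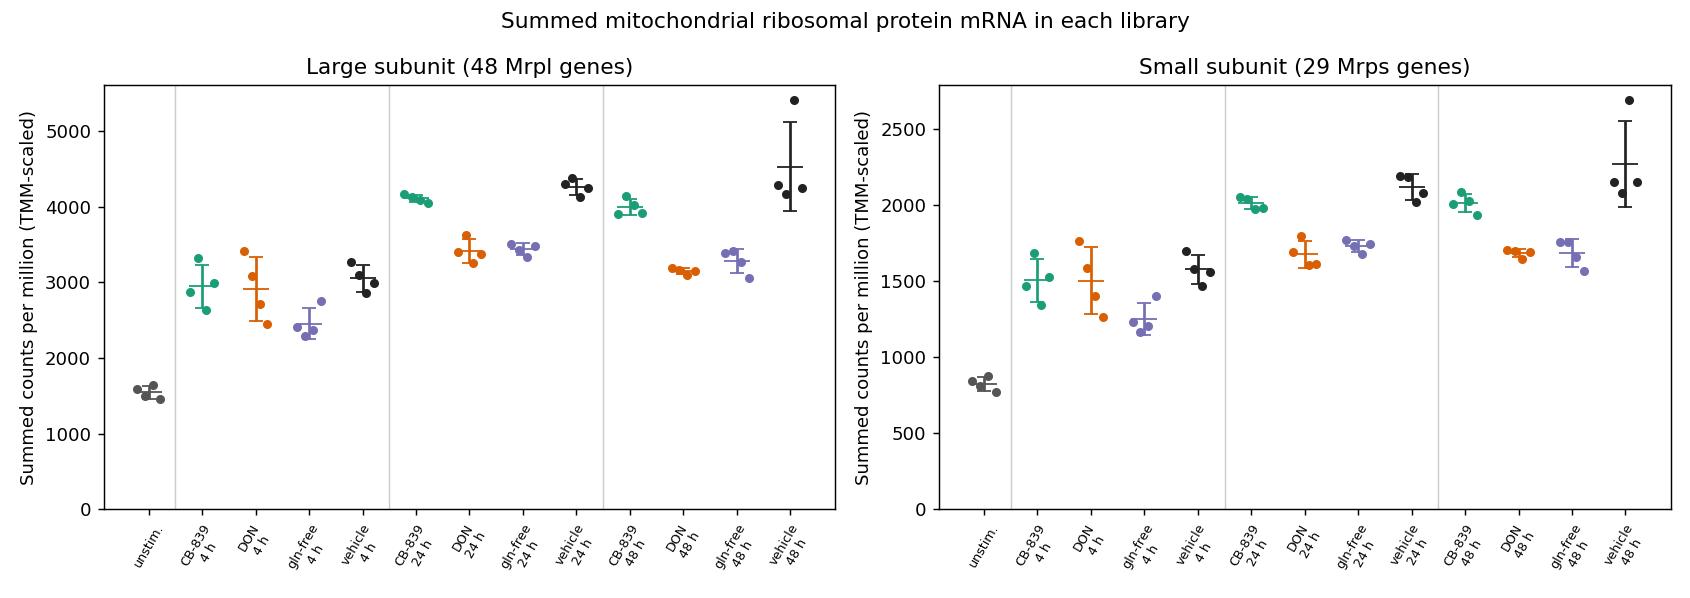
Summed TMM-scaled CPM of the 48 Mrpl genes (left) and the 29 Mrps genes (right) in each of the 52 libraries, with group means and SD as bars (n = 4; gln-free is glutamine-free medium). The unstimulated libraries are lowest at 1453 to 1647 CPM for the large subunit, DON and glutamine-free libraries lie below vehicle at 24 h and 48 h, and library C of the 48 h vehicle group is alone at 5413 CPM.

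At 4 h, 66 members were higher and 5 lower in vehicle cells than in unstimulated cells (edgeR quasi-likelihood test, adjusted p under 0.05), where 33.9% of the 18317 genes tested were higher and 41% lower. The median log2 fold change was 0.91 for the members and -0.21 for all genes. At 24 h, 75 were higher and 2 lower (38.7% and 45.5% of all genes), with a median of 1.41 against -0.18, and at 48 h again 75 and 2 (38.3% and 45.1%), with a median of 1.54 against -0.16 (75 and 2, with a median of 1.47, without library C). RLE scaling gave the same counts of higher and lower members at all 3 times. By library totals alone they were 57 and 7, 74 and 2, and 74 and 2, with the median of all genes at -0.45, -0.48 and -0.44. The members of bacterial ancestry and those added in mitochondria had close medians at 48 h, 1.57 for 46 genes and 1.53 for 30 genes.

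Mrps6, a small-subunit protein of bacterial ancestry, had the largest early rise. Its level was 7.79, 6.15, 7.33 and 7.57 CPM in unstimulated libraries A to D, 69.3, 60.7, 59.1 and 58.9 CPM at 4 h, 49.1, 53.4, 60.6 and 60.5 CPM at 24 h, and 47.7, 52.3, 54.9 and 44.9 CPM at 48 h. Every activated vehicle library was above every unstimulated one, and the 4 h libraries overlapped those of 24 h and lay above those of 48 h. The log2 fold change at 4 h was 3.11 ± 0.10 (SE, edgeR adjusted p = 4.61e-16). Of its exon bases, 19.9% lie in exons of Gm49711 or Slc5a3, the inositol transporter gene of the same locus. Reads over exons of several genes were counted for none of them.

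Mrpl12 encodes the stalk protein that recruits translation factors to the ribosome. It had 52, 49.6, 61.2 and 42.7 CPM in unstimulated libraries, 255.5, 235.5, 212.1 and 217.4 CPM at 4 h, 319.9, 332.5, 275.8 and 289.8 CPM at 24 h, and 310.6, 267.5, 451.1 and 301.8 CPM at 48 h. Per kilobase of exon it ranked first of the 77 in vehicle cells at all 3 times, at 217 CPM per kb at 48 h, where the median over members was 32.6 CPM per kb. The log2 fold changes over unstimulated cells were 2.17 ± 0.14 at 4 h and 2.64 at 48 h (edgeR adjusted p = 2.02e-11 and 1.24e-12). Mrpl24, a protein of the exit site, ranked first per kilobase in unstimulated cells, at 53.7 CPM per kb.

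Members differed in how much of their rise came by 4 h. Mrpl17, Mrps2, Mrpl12 and Mrpl47 rose by 2.71, 2.24, 2.17 and 2.14 on the log2 scale by 4 h. Mrpl1, of the L1 stalk that helps release spent tRNA, had 10.1, 9.35, 9.96 and 9.89 CPM in unstimulated libraries, 19.7, 19.9, 18.8 and 18 CPM at 4 h, 56.9, 58.5, 71.1 and 71.5 CPM at 24 h, and 96.9, 109.7, 87.3 and 86.2 CPM at 48 h. No libraries of 2 times overlapped, and at 48 h Mrpl1 had the largest fold of any member over unstimulated cells, 3.22 ± 0.10 on the log2 scale (edgeR adjusted p = 3.25e-16).

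Mrpl34, a large-subunit protein of bacterial ancestry, first fell and then rose. It had 23.9, 20.5, 25.3 and 21.8 CPM in unstimulated libraries, 14.0, 10.8, 12 and 10.1 CPM at 4 h, 58, 56.9, 53.2 and 55 CPM at 24 h, and 72.8, 71.8, 99.7 and 73.4 CPM at 48 h. The 4 h libraries were the lowest and those of 24 h and 48 h the highest. The log2 fold change was -0.96 ± 0.11 at 4 h against unstimulated cells and 2.19 ± 0.11 at 24 h against 4 h (edgeR adjusted p = 1.77e-07 and 1.51e-12). Mrpl4 of the exit tunnel, Mrpl58, a peptidyl-tRNA hydrolase that frees stalled ribosomes, and Mrpl14 of the subunit interface were also lower at 4 h (log2 fold changes of -0.70, -0.56 and -0.51). Mrpl4 (0.94), Mrpl58 (0.35) and Mrpl14 (1.49) were higher than in unstimulated cells at 48 h.

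Between 4 h and 24 h, 52 members rose and 7 fell (36.4% and 37.8% of all genes), with Mrpl18 of the central protuberance (1.91 ± 0.07) and Mrpl1 (1.70 ± 0.09) behind Mrpl34, and Mrpl17 (-0.42), Mrps2 (-0.40) and Mrpl3 (-0.28) among the falls. Between 24 h and 48 h, 16 rose and 2 fell (15.6% and 16.8%), led by Mrpl4 (0.57) and Mrpl1 (0.56). Without library C of the 48 h vehicle group that last count became 10 higher and 10 lower, and without any other library of the 2 groups 11 to 19 higher and 1 lower.

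Only 2 members were below unstimulated cells at 24 h and 48 h, Mrpl23 and Mrpl24. Mrpl23, another protein of the exit site, had 9.52, 10.2, 10.6 and 9.63 CPM in unstimulated libraries, 12.5, 11.9, 11.7 and 13.2 CPM at 4 h, 6.12, 7.38, 6.57 and 5.87 CPM at 24 h, and 6.27, 6.76, 9.25 and 6.38 CPM at 48 h. Its libraries at 24 h and 48 h all lay below the unstimulated ones, with log2 fold changes of -0.68 ± 0.11 and -0.54 ± 0.11 (edgeR adjusted p = 1.89e-05 and 0.000228). Mrpl23-ps1, a pseudogene of the same name, had a mean of 51.958 CPM over the 52 libraries, so reads may be split between the copies and the values of Mrpl23 are uncertain. Mrpl24 fell by 0.37 at 24 h and by 0.57 at 48 h, with 26.3% of its exon bases in exons of Rrnad1.

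**Figure D2:**
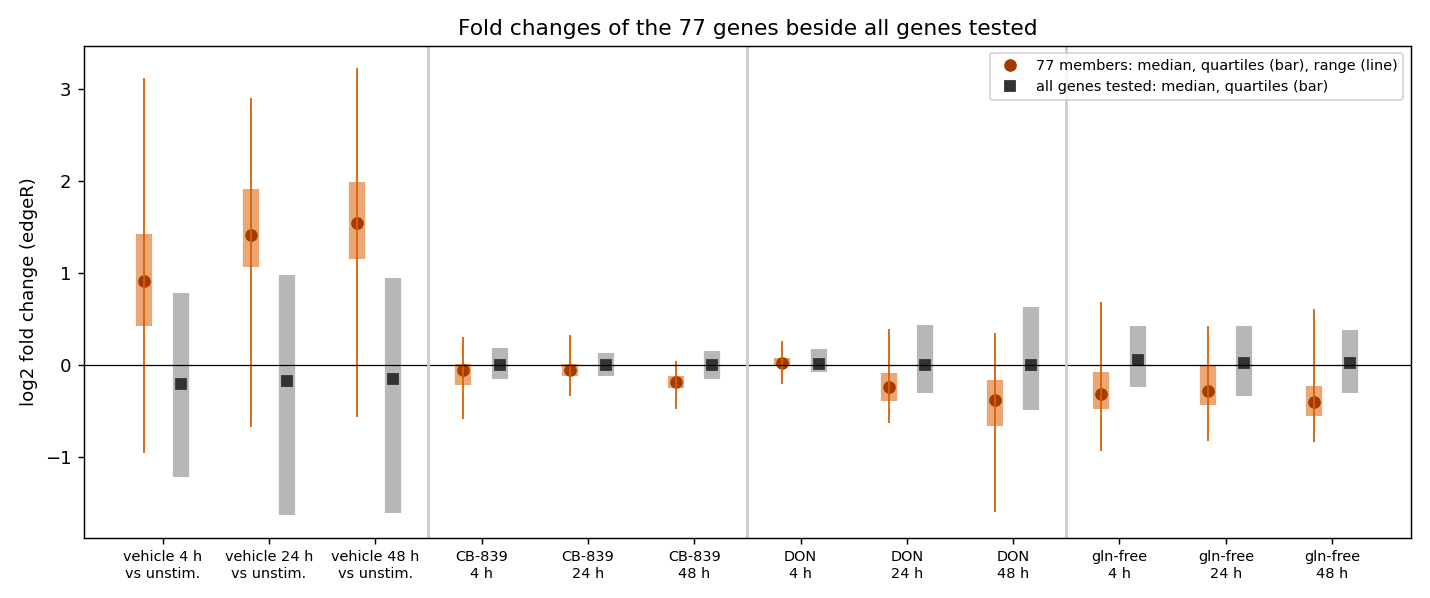
log2 fold changes (edgeR) of the 77 members (orange: median point, quartile bar, full range line) beside all genes tested (grey: median and quartile bar). The first 3 columns are vehicle cells against unstimulated cells and the others each treatment against vehicle at the same time (gln-free is glutamine-free medium). The member medians are 0.91, 1.41 and 1.54 on activation, and -0.38 with DON and -0.41 in glutamine-free medium at 48 h (-0.23 and -0.33 without library C of the 48 h vehicle group).

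With CB-839, a minority of members passed the test at each time. At 4 h, 3 were higher and 19 lower than with vehicle (edgeR, adjusted p under 0.05), where 5.85% of the 18274 genes tested were higher and 6.64% lower. At 24 h, 2 were higher and 5 lower (2.47% and 2.48%), or 2 and 12 with the replicate letter as a block, and at 48 h 0 were higher and 23 lower (8.5% and 6.73%). The median log2 fold change was -0.06, -0.06 and -0.19 at 4, 24 and 48 h. Without vehicle library C the 48 h count was 0 and 24 and the median -0.08. These counts were sensitive to single libraries and to the fit: at 24 h they ran from 3 to 8 called members when 1 library was left out, the fewest without CB-839 library C and 4 without CB-839 library A or vehicle library B. At 4 h they fell to 14 without CB-839 library C or vehicle library B, and at 48 h to 14 without CB-839 library A or C.

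Mrps16, a small-subunit protein bound early in assembly, had 19.9, 23.4, 18.6 and 22.3 CPM with CB-839 at 4 h, against 34.1, 30.6, 29.9 and 30.3 CPM with vehicle. The groups did not overlap, and the log2 fold change was -0.59 ± 0.06 (edgeR adjusted p = 5.54e-06). At 24 h it had 63.4, 63.6, 55.3 and 59.0 CPM with CB-839 and 82.3, 76.5, 69.4 and 72.8 CPM with vehicle, again without overlap (-0.32 ± 0.07, edgeR adjusted p = 0.0151), a call lost without CB-839 library C. At 48 h the difference of -0.20 had an edgeR adjusted p of 0.354 and was 0.03 without vehicle library C. Mrpl17 had 91.3, 111.7, 80.2 and 95.4 CPM with CB-839 at 4 h, against 138.0, 126.7, 113.6 and 121.8 CPM with vehicle (-0.43 ± 0.07, edgeR adjusted p = 0.000322), and was lower with CB-839 at all 3 times. Mrps6 moved the other way at 4 h (0.30) and 24 h (0.32).

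At 48 h the largest fall with CB-839 was that of Mrpl1, at 64.9, 66.0, 71.1 and 71.4 CPM, against 96.9, 109.7, 87.3 and 86.2 CPM with vehicle (-0.48 ± 0.07, edgeR adjusted p = 0.000281). Mrpl33 (-0.44), Mrpl17 (-0.41), Mrps18c (-0.41) and Mrpl40 (-0.32) followed, and the CB-839 and vehicle libraries overlapped for Mrpl33 and Mrps18c. Without vehicle library C these values were -0.18 for Mrpl33, -0.25 for Mrpl17, -0.37 for Mrps18c and -0.21 for Mrpl40, and the call of Mrpl33 was lost without vehicle library B or any 1 CB-839 library. The effect differed between 48 h and 24 h for 4 members, each more negative at 48 h: Mrpl33, Mrps6, Mrpl1 and Mrpl45 (edgeR interaction, adjusted p = 0.0207, 0.00199, 0.0447 and 0.0426), where 2.27% of all genes were called higher and 1.23% lower. That count lay between 1 and 7 when 1 library was left out, 7 (3 more positive and 4 more negative at 48 h) without vehicle library C of 48 h and 1 without CB-839 library A of 48 h or vehicle library A of 24 h.

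With DON, no member passed the test at 4 h, and most were lower at 24 h and 48 h. At 4 h, 0 members were called (0.0% and 0.0% of all genes, edgeR), 3 members and 1862 of all genes had an unadjusted p under 0.05, and DESeq2 also called 0. The 4 h fit was noisier, with a common coefficient of variation of 0.173, against 0.0842 at 24 h. Small differences could go uncalled there. Summed members spanned 3706.5 to 5181.5 CPM with DON and 4324.2 to 4972.1 CPM with vehicle at 4 h. As a share of all counts they took 0.464 to 0.472% with DON, against 0.449 to 0.456% with vehicle, without overlap. At 24 h, 3 were higher and 51 lower (28.1% and 29.9% of the 16269 genes tested), with a median log2 fold change of -0.24 against -0.01 for all genes. Scaled by library totals alone, these became 15 and 28, with the median of all genes at 0.18 and that of the members at -0.05. At 48 h, 5 were higher and 55 lower (35.6% and 35.6% of the 16173 genes), with a median of -0.38 against 0.00. By library totals alone this was 12 and 36 with a median of -0.18, and without library C of the vehicle group 12 and 50 with a median of -0.23. The summed level was 4838 ± 62.1 CPM with DON, against 6803 ± 875 CPM with vehicle, at 48 h (SD, n = 4 each), without overlap. The Mrpl sum was 0.696 and the Mrps sum 0.742 times that of vehicle, or 0.744 and 0.792 times without vehicle library C, where vehicle averaged 6367 ± 107.5 CPM over all members (SD, n = 3). As a share of all counts, the members took 0.54 to 0.546% with DON at 48 h. With vehicle they took 0.575 to 0.713%, or 0.575 to 0.599% without library C, again without overlap. At 24 h the shares overlapped, at 0.535 to 0.568% with DON and 0.567 to 0.582% with vehicle. The fall with DON was smaller as a share of counts than in TMM-scaled CPM. Summed myeloid markers were also higher with DON, at 10.0 to 18.2 CPM, against 3.44 to 4.93 CPM with vehicle, at 24 h, and at 21.7 to 23.4 CPM, against 2.6 to 3.53 CPM with vehicle, at 48 h, and their part in these counts was not tested.

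At 24 h, Mrpl2 (-0.61), Mrps12 (-0.57) and Mrps18a (-0.52) were also below vehicle, and Mrpl23 (0.39), Mrpl14 (0.35) and Mrpl48 (0.14) were the 3 that rose. The 2 deepest falls under DON at 48 h were those of Mrpl55 and Mrpl41, both of the large subunit. Mrpl55 had 29.6, 32.1, 27.5 and 28 CPM with DON at 24 h, against 46.6, 49.4, 39 and 46.3 CPM with vehicle. At 48 h it had 15.4, 16.1, 13.8 and 14.5 CPM with DON, against 45.9, 38.5, 64.9 and 45.6 CPM with vehicle. Neither time had overlapping groups, and the log2 fold change was -0.56 ± 0.07 at 24 h and -1.6 ± 0.12 at 48 h (edgeR adjusted p = 6.41e-07 and 6.24e-10).

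Mrpl41 had 27.6, 32.6, 28.9 and 28.7 CPM with DON at 24 h, against 49.6, 50.6, 45 and 48.1 CPM with vehicle. At 48 h the values were 16.2, 17.1, 17.4 and 17.9 CPM with DON and 47.8, 46, 65.9 and 48.1 CPM with vehicle. All DON libraries lay below all vehicle libraries, and the log2 fold changes were -0.64 ± 0.06 and -1.49 ± 0.11 (edgeR adjusted p = 1.87e-08 and 3.28e-10). Without vehicle library C the 48 h values were -1.36 for Mrpl41 and -1.43 for Mrpl55.

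Mrps31, a small-subunit protein added in mitochondria, had 17.4, 19.5, 19.6 and 16.9 CPM with DON at 48 h, against 39.8, 43.5, 41.2 and 39.3 CPM with vehicle (-1.05 ± 0.06, edgeR adjusted p = 3.17e-11). Mrpl51 (-1.06), Mrpl47 (-1.02) and Mrpl40 of the central protuberance (-1.02) also fell. Further falls at 48 h were those of Mrps18a (-0.87), Mrpl1 (-0.84), Mrpl12 (-0.80), Mrps18b (-0.80), Mrps12 of the decoding centre (-0.79), Mrpl18 (-0.77), Mrps5 (-0.68) and Mrpl17 (-0.62). Among the paralogs of bacterial S18, Mrps18c fell less, by 0.44.

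A few members went the other way under DON. Mrpl9, a large-subunit protein of bacterial ancestry, had 113.4, 120.8, 106.1 and 117.2 CPM with DON at 24 h, against 147.4, 152.4, 146.6 and 154.6 CPM with vehicle, and at 48 h had 174.1, 174.9, 171.0 and 175.7 CPM with DON, against 152.5, 150.9, 150.6 and 147.2 CPM with vehicle. The DON libraries were all below vehicle at 24 h (-0.32) and all above it at 48 h (0.32 ± 0.04), and the interaction of 0.63 ± 0.05 had an edgeR adjusted p of 6.49e-11. Mrpl23 (0.34), Mrps23 (0.23), Mrpl48 (0.20) and Mrpl10 (0.13), whose protein holds the Mrpl12 stalk, were also higher at 48 h. Reads of Mrpl48 and of its copy Mrpl48-ps, at a mean of 16.952 CPM, may be split, so its value is uncertain, and its call at 48 h was lost without vehicle library A, B or D or DON library C. The effect of DON differed between 48 h and 24 h for 39 members, 7 higher and 32 lower at 48 h (18.2% and 22.1% of the 17257 genes tested), or 13 and 30 without vehicle library C of 48 h. Mrpl55 (-1.05), Mrpl41 (-0.86), Mrpl40 (-0.84), Mrpl1 (-0.76) and Mrps31 (-0.71) led the falls, and Mrpl58 (0.37) and Mrps23 (0.34) were among the rises.

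**Figure D3:**
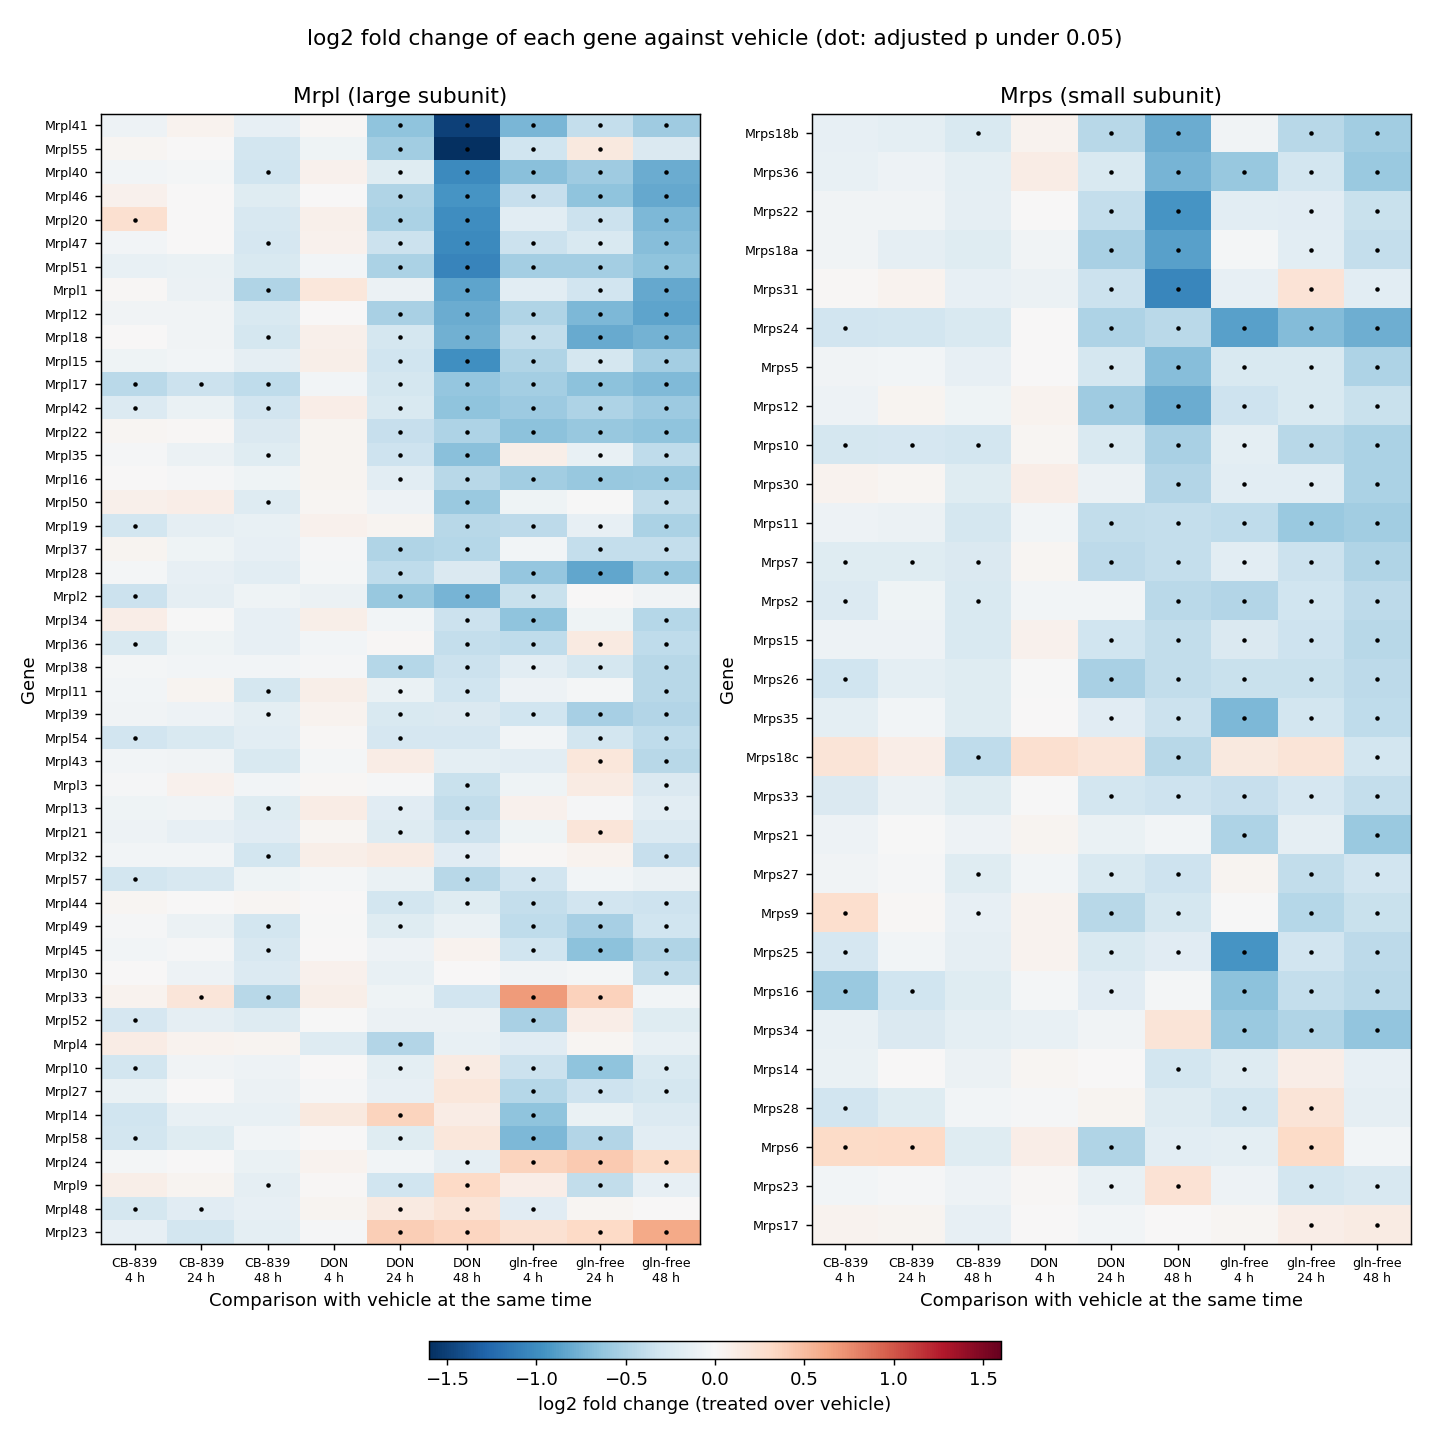
log2 fold change of each Mrpl gene (left) and Mrps gene (right) against vehicle at the same time, with dots for edgeR adjusted p under 0.05. Rows are ordered by the mean of the DON and glutamine-free values at 48 h (gln-free is glutamine-free medium). The darkest blue cells are Mrpl55 (-1.6) and Mrpl41 (-1.49) with DON at 48 h, and the DON 4 h column has no dot.

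Without glutamine, most members were lower from the first time on. At 4 h, 2 were higher and 50 lower than with vehicle (16.2% and 21.4% of all genes, edgeR), with a median log2 fold change of -0.32 against 0.05 for all genes. At 24 h, 11 were higher and 50 lower (30% and 28.9%), with a median of -0.29, or 16 and 40 with a median of -0.19 by library totals alone. The higher count at 24 h was 6 without vehicle library C or D, 7 without vehicle library A or glutamine-free library A, B or D, 6 with no low-count filter and 4 in a fit of all 52 libraries, and the lower count was 49 or 50 in these. At 48 h, 3 were higher and 61 lower (28% and 26.3%), with a median of -0.41, or 4 and 60 with a median of -0.33 without vehicle library C. The summed level was 3707 ± 310.4 CPM without glutamine, against 4632 ± 270 CPM with vehicle, at 4 h, and 4970.1 ± 249.1 CPM against 6803 ± 875 CPM at 48 h (SD, n = 4 each), and neither time overlapped. At 48 h that was 0.731 times vehicle, or 0.781 times without vehicle library C. Glutamine-free library C at 4 h deviated most from its group mean over all genes and held its group's highest B cell and myeloid marker sums, 338.8 and 177.5 CPM. Without it the 4 h count was 5 higher and 44 lower.

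Mrps35, of the small subunit, had 15.4, 14.7, 15.7 and 15.8 CPM without glutamine at 4 h, against 30.4, 27.3, 24.0 and 26.5 CPM with vehicle (-0.72 ± 0.06, edgeR adjusted p = 2.28e-08). Mrpl33 had 60.9, 56.8, 56 and 68.2 CPM without glutamine at 4 h, against 41.7, 40.8, 39.1 and 38.8 CPM with vehicle (0.68 ± 0.06, edgeR adjusted p = 6.15e-08), and rose, as only Mrpl24 (0.35) did besides. Neither gene's groups overlapped. Mrps24 (-0.87), Mrpl41 (-0.73), Mrpl58 (-0.72), Mrps16 (-0.66) and Mrpl17 (-0.54) were also lower at 4 h. Mrps25 was lowest in fold (-0.94), with 69.8% of its exon bases in exons of Nr2c2.

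At 24 h, Mrpl18 had 73.7, 72.6, 71.5 and 77.4 CPM without glutamine, against 121.6, 129.8, 136.3 and 147.6 CPM with vehicle. The groups did not overlap (-0.81 ± 0.07, edgeR adjusted p = 8.93e-09). Mrpl12 had 181.0, 177.2, 173.4 and 185.4 CPM without glutamine, against 319.9, 332.5, 275.8 and 289.8 CPM with vehicle (-0.72 ± 0.07, edgeR adjusted p = 1.28e-08). Mrpl28 (-0.83), Mrps24 (-0.70), Mrpl17 (-0.66), Mrpl45 (-0.66) and Mrpl10 (-0.65) were also lower, and Mrpl24 (0.42), Mrpl33 (0.37), Mrps6 (0.30) and Mrps31 (0.22) higher.

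At 48 h Mrpl12 had 186.9, 190.4, 188.3 and 155.8 CPM without glutamine and 310.6, 267.5, 451.1 and 301.8 CPM with vehicle (-0.84 ± 0.12, edgeR adjusted p = 1.11e-05, or -0.66 without vehicle library C). With all libraries it was the furthest below vehicle, and without library C Mrpl1 (-0.86), Mrpl18 (-0.75), Mrpl46 (-0.74) and Mrpl40 (-0.69) were lower. Mrpl46 of the central protuberance had 47, 50.5, 48.7 and 44.3 CPM without glutamine, against 81.2, 81.5, 101.3 and 82.2 CPM with vehicle (-0.82 ± 0.07, edgeR adjusted p = 1.68e-08). Neither gene's groups overlapped. Mrpl1 had 53, 54.2, 47 and 55.2 CPM without glutamine, against 96.9, 109.7, 87.3 and 86.2 CPM with vehicle (-0.82 ± 0.07). Mrpl40 (-0.79), Mrps24 (-0.78), Mrpl18 (-0.76), Mrpl17 (-0.71) and Mrps18b (-0.56) followed, and Mrpl23 (0.60), Mrpl24 (0.30) and Mrps17 (0.13) were the 3 that rose. Mrps24 was at -0.52 without vehicle library C. The effect of glutamine-free medium differed between 48 h and 24 h for 28 members, 5 higher and 23 lower at 48 h (16.5% and 12.6% of all genes), with Mrpl43 (-0.61), Mrpl36 (-0.54) and Mrpl1 (-0.50) among the falls and Mrpl10 (0.41) among the rises. Without vehicle library C of 48 h the count was 7 and 19 and the value of Mrpl36 was -0.35. The higher count was 3 without vehicle library A or D of 24 h, vehicle library A, B or D of 48 h, or glutamine-free library B of 24 h or of 48 h. Of the exon bases of Mrpl43, 33.4% lie in exons of Twnk.

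The treatments could be set against each other at matched times. With DON against CB-839 at 24 h, 6 members were higher and 41 lower (29% and 30.8% of all genes, edgeR), which became 21 and 19 by library totals alone, so the direction of the family depended on the scaling. At 48 h it was 12 and 38 (35.7% and 34.7%), or 20 and 25 by library totals alone. With DON against CB-839, the log2 fold change of Mrpl41 was -0.69 at 24 h and -1.37 at 48 h, and that of Mrpl55 -0.57 and -1.31. Mrps6, called higher with CB-839 than with vehicle at 4 h and 24 h, had 38.7, 39.3, 35.1 and 39.8 CPM with DON at 24 h, against 69.3, 65.9, 73.2 and 72.0 CPM with CB-839 (-0.80 ± 0.06, edgeR adjusted p = 3.22e-09).

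In TMM-scaled CPM, the summed level without glutamine was 1.02 times that with DON at 24 h and 1.03 times at 48 h, with overlapping libraries. As a share of all counts, the members took less without glutamine than with DON at both times, without overlap. At 24 h the shares were 0.513 to 0.524% without glutamine and 0.535 to 0.568% with DON. At 48 h they were 0.475 to 0.516% and 0.54 to 0.546%. Single members differed in both directions. At 24 h, 19 were higher and 25 lower without glutamine than with DON (28.7% and 30.2% of all genes, edgeR), or 12 and 32 by library totals alone, and at 48 h 22 were higher and 20 lower (34.6% and 34.1%), or 14 and 30. With TMM scaling these counts were near the shares of all genes at 24 h and below them at 48 h. Mrpl55 had 40.5, 43.3, 39.8 and 38.5 CPM without glutamine at 48 h, against 15.4, 16.1, 13.8 and 14.5 CPM with DON (1.37 ± 0.12, edgeR adjusted p = 5.97e-09). Mrpl41 had 34.1, 38.8, 34.4 and 29.2 CPM without glutamine and 16.2, 17.1, 17.4 and 17.9 CPM with DON (0.93 ± 0.10, edgeR adjusted p = 2.73e-07), and Mrps31 had 36.7, 34.3, 33.9 and 36.2 CPM without glutamine, against 17.4, 19.5, 19.6 and 16.9 CPM with DON (0.88 ± 0.06, edgeR adjusted p = 4.88e-10). None of the 3 overlapped between the treatments.

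Mrpl45, which anchors the ribosome to the inner membrane, was lower without glutamine than with DON. It had 78.0, 72.1, 76.1 and 74.7 CPM without glutamine at 24 h, against 113.5, 120.2, 106.1 and 101.1 CPM with DON (-0.57 ± 0.05, edgeR adjusted p = 3.68e-09). At 48 h it had 87.8, 86.0, 80.0 and 84.1 CPM without glutamine, against 116.7, 120.3, 121.7 and 112.7 CPM with DON (-0.55 ± 0.05, edgeR adjusted p = 1.21e-08). The groups did not overlap at either time, and against vehicle at 48 h it was -0.48 without glutamine (edgeR adjusted p = 1.56e-07) and 0.06 with DON (adjusted p = 0.25). Mrpl18 (-0.53), Mrpl10 (-0.49) and Mrpl16 (-0.43) were also lower without glutamine than with DON at 24 h, as were Mrps21 (-0.56) and Mrps23 (-0.49) at 48 h. Mrps34 (-0.85) was too, but 77.8% of its exon bases lie in exons of Nme3 or Mapk8ip3.

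**Figure D4:**
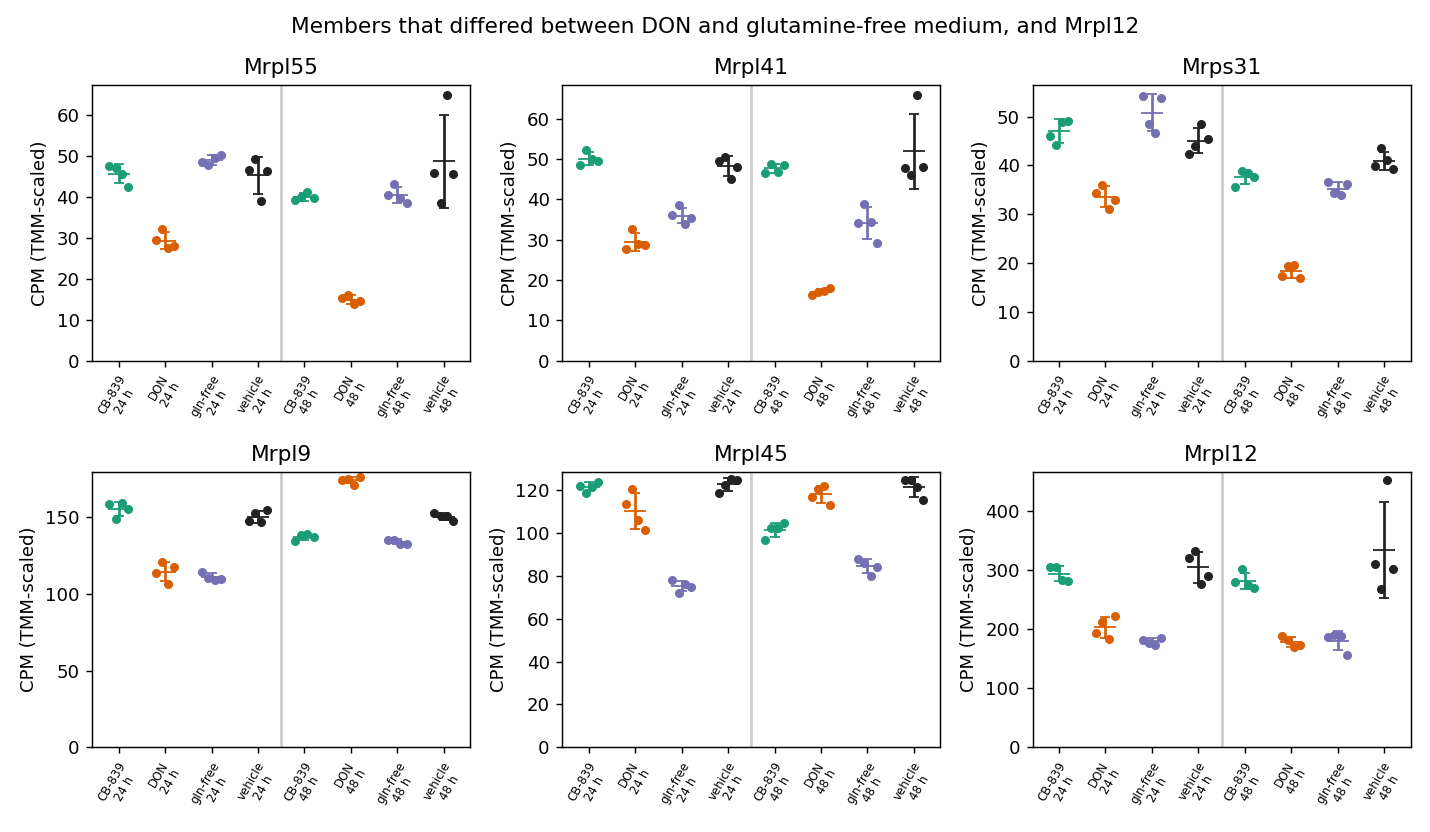
CPM of Mrpl55, Mrpl41, Mrps31, Mrpl9, Mrpl45 and Mrpl12 in each library at 24 h and 48 h, with means and SD (n = 4; gln-free is glutamine-free medium). Mrpl55, Mrpl41 and Mrps31 are lowest with DON at 48 h, at 13.8 to 19.6 CPM, Mrpl45 is lowest without glutamine, and Mrpl9 is highest with DON at 48 h.

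Other genes of the same pathway were counted from lists of named factors. In vehicle cells at 24 h against unstimulated cells, 38.7% of all genes rose and 45.5% fell. Of 12 tested mitochondrial translation factors, 10 rose and 0 fell in vehicle cells at 24 h against unstimulated cells, among them the elongation factors Gfm1 (2.47), Tsfm (2.24) and Tufm (2.06). Of 20 assembly and ribosomal RNA modification factors, 18 rose and 0 fell, with Fastkd2 at 1.92 and the helicase Ddx28 at 1.79. Of 34 nuclear genes of the respiratory complexes, whose partners this ribosome makes, 33 rose and 1 fell. Of 40 cytosolic ribosomal proteins, 6 rose and 13 fell at 24 h, with a median of -0.22. All 5 mitoribosomal proteins with other names rose, with a median of 1.48.

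With DON at 48 h, 35.6% of all genes rose and 35.6% fell. Of the translation factors 1 rose and 6 fell, including Mtif2 (-0.97), an initiation factor, and Gfm1 (-0.72), while Tufm (-0.13, edgeR adjusted p = 0.21) was not called. Of the assembly factors 4 rose and 12 fell, Mrm2 (-0.99) and Mtg2 (-0.97) lowest and Rpusd4 (0.90) highest. Of 10 genes of mitochondrial DNA replication, transcription and mRNA care, 1 rose and 7 fell. The rise was that of Polg2 (0.93), a subunit of the DNA polymerase, and among the falls were Twnk (-1.50), the replication helicase, the translation activator Taco1 (-1.08) and Lrpprc (-1.02), which binds mitochondrial mRNA. Of the respiratory genes 1 rose and 15 fell, and of the cytosolic ribosomal proteins 4 rose and 5 fell, with a median of 0.01. Without vehicle library C the respiratory genes gave 6 and 10, and the cytosolic ribosomal proteins 29 and 4 with a median of 0.32. Without glutamine at 48 h, 28% of all genes rose and 26.3% fell. Of the translation factors 1 rose and 8 fell, with Tufm at -0.81 and Gfm1 at -0.58. Of the 20 assembly factors 6 rose and 7 fell, near the shares of all genes. Twnk (-0.05, edgeR adjusted p = 0.453) and Lrpprc (-0.17, edgeR adjusted p = 0.0781) were not called, though Lrpprc was called lower without vehicle library C. For the cytosolic ribosomal proteins the counts were 1 and 7 (median -0.17), or 11 and 7 (median 0.11) without vehicle library C.

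H3K27ac, a mark of active promoters and enhancers, was examined at the member promoters, within 1000 bases of the annotated start. In the glutamine-free list 32 of 77 members (41.6%) had a peak, against 28.6% of the 16173 genes tested, and in the vehicle list 50 members (64.9%), against 42%. Those 16173 genes passed the count filter at 48 h but were not matched to the members in RNA level, and a share among matched genes was not computed. Both lists held a peak for 24 members, Mrpl12, Mrpl46, Mrps11 and Mrpl41 among them, the glutamine-free list alone for 8, the vehicle list alone for 26, and neither for 19, Mrpl55, Mrpl17 and Mrps31 among them. The member median of the RNA fold change without glutamine at 48 h was -0.45, -0.39, -0.41 and -0.41 in these 4 classes. The neighbours Mrpl46 and Mrps11 had the same peak signal, 10.26 without glutamine and 8.67 with vehicle, so 1 peak may count for both. The CB-839 and DON lists were short, with 117 and 33 peaks in the genome against 6687 in the glutamine-free and 9681 in the vehicle list, and held 0 member promoters (0.643% and 0.21% of genes). A peak missing from so short a list is not shown to be absent from the cells.

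H3K27me3, a mark of repressed chromatin, was rare at these promoters. The CB-839 list had 0 (11% of genes), the DON list 1, Mrpl35 (3.74%), the glutamine-free list 1, Mrpl23 (7.2%), and the vehicle list 2, Mrpl23 and Mrpl35 (10.6%). Here too the genes tested were not matched to the members in RNA level. The lists were merged over 2 replicates by the authors, so no error between replicates can be given for a peak.

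**Figure D5:**
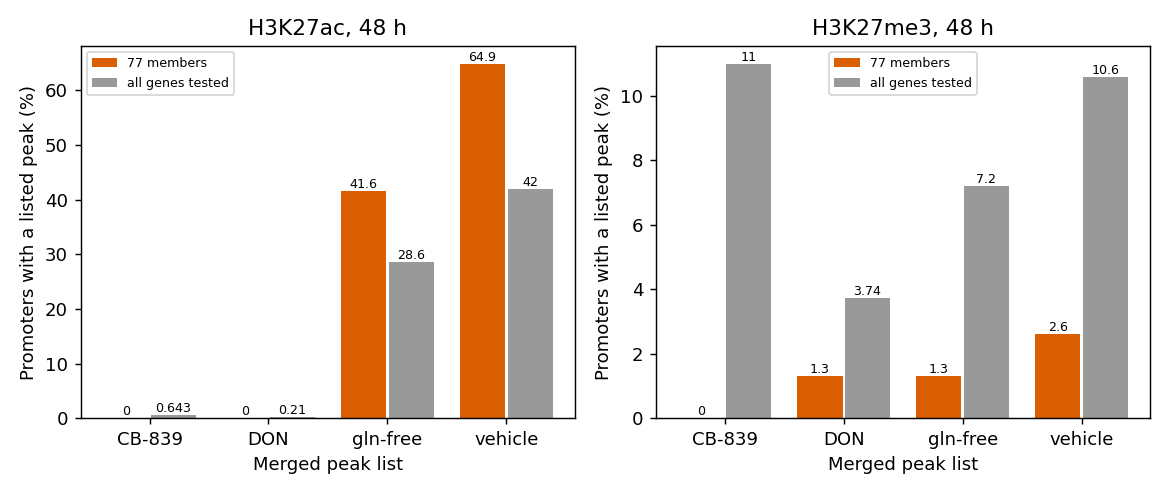
Percent of member promoters (orange, 77 genes) and of all tested genes (grey) with a peak in the merged H3K27ac (left) and H3K27me3 (right) list of each condition at 48 h. Members reach 41.6% in the glutamine-free and 64.9% in the vehicle H3K27ac list, and at most 2.6% in the H3K27me3 lists.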

How the data were processed

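Gene counts were made by the authors with featureCounts 2.0.1 on GENCODE M25 and mm10, per the file headers, which show no strand option. Reads over exons of several genes went to none. Besides those marked above, named members with shared exon bases included Mrps18b (30.5%), Mrps27 (24.2%), Mrpl47 (24.2%), Mrps18c (23.2%), Mrps24 (15.4%), Mrpl10 (14.1%) and Mrpl46 (12.2%). Peak lists were deposited as merged lists of 2 replicates, with a score (scaled IDR, and a merged signal) and a −log10 IDR as the authors' values. The submitters' processing notes name STAR, Bowtie2, MACS2 and deepTools with no role.

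Counts were tested with edgeR 4.0.16 (R 4.3.3): quasi-likelihood, TMM, filterByExpr, Benjamini-Hochberg adjustment over all genes at 0.05, in 1 fit per time, 1 for vehicle and unstimulated libraries, and 1 for 24 h and 48 h together. The script was tested on simulated data. Levels are CPM on TMM-scaled totals. Promoter peaks overlap 1000 bases either side of a start by at least 1 base. DESeq2 1.42.0 and the other alternatives are in the closing section. Members and lists were chosen with earlier results of these data known. Members named are the up to 5 largest rises and falls per comparison, the extremes of level and a panel by role; partner genes and some repeat values were chosen after seeing them. Every correlation of same-letter deviations was over 0.1 in 4 comparisons: CB-839 with vehicle (0.515 to 0.686 at 4 h, 0.591 to 0.742 at 24 h), DON with vehicle at 4 h (0.204 to 0.685) and, at 48 h, DON with CB-839 (0.167 to 0.304). In that order the best match had the same letter for 4, 3, 3 and 2 of the 4 letters, so pairing is not established in all of them.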

Additional observations from a re-analysis of the deposited data

Results flagged for a closer look

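Among 93 groups of 4 libraries checked, 8 held a library whose gap to the nearest other, as a share of the group's range, was above Dixon's 95% critical value, which chance passes in about 5% of groups. In the 48 h vehicle group library C was the one apart in the large-subunit sum (0.897) and the small-subunit sum (0.875), and in Mrpl34 (0.942), Mrpl23 (0.835), Mrpl41 (0.895) and Mrpl46 (0.947). Mrpl12 without glutamine at 48 h gave 0.899 through library D (155.8 CPM), and Mrps16 with vehicle at 4 h gave 0.836 through library A (34.1 CPM).

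The effect of a treatment differed between 48 h and 24 h by the edgeR interaction test for 4 members with CB-839, 39 with DON and 28 without glutamine. In that order, 0 and 4, 7 and 32, and 5 and 23 of the 77 members were higher and lower at 48 h. Of the 17257 genes tested, 391 and 213, 3148 and 3810, and 2843 and 2182 were. With 1 library left out, the totals of members ran from 1 to 7, 35 to 44 and 23 to 28.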

How the results depend on the processing

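Of 339 alternative values for 29 summary results, 310 stayed within the limits set and 29 moved. The counts of called members with CB-839 moved most often. At 4 h it was 10 in a fit of all 52 libraries and 14 to 22 with 1 library left out. At 24 h it was 14 with the replicate block, 1 in the fit of all 52 libraries and 3 to 8 with 1 library left out. At 48 h it was 15 with no low-count filter, 13 in the fit of all 52 libraries and 14 to 24 with 1 library left out. The CB-839 interaction count was 7 with DESeq2, 2 in the fit of all 52 libraries and 1 to 7 with 1 library left out. The block moved no other count of called members by over 1.5 times. In the fit of all 52 libraries the higher counts were 1 at 24 h and 1 at 48 h with DON against vehicle, 3 and 5 with DON against CB-839, and 3 and 2 for the DON and glutamine-free interactions. For H3K27me3, a window of 2500 bases gave 4 CB-839 and 5 vehicle promoters, an overlap of at least 50% gave 0 without glutamine and 1 with vehicle, and an IDR of 0.01 or less gave 0 with DON and 1 with vehicle. That IDR left no H3K27ac peak in the CB-839, glutamine-free and vehicle lists.

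Values of single members were tallied only for the largest called rises and falls of each comparison and the panel by role, so they give no rate for all members. Of these values, 8382 stayed on their side of the threshold, sign changes of values called in neither fit included, 5068 of them with 1 library left out. Another 378 lost the call, 94 gained it, and 11 called in at least 1 of the 2 fits changed sign. By library totals alone, log2 values became 0.17 for Mrpl3, 0.03 for Mrpl10, 0.02 for Mrps16 and 0.08 for Mrpl11 with DON against vehicle at 24 h, and 0.01 for Mrpl32 and 0.02 for Mrps6 at 48 h. With DON against CB-839 they became 0.16 for Mrpl58 and 0.02 for Mrpl11 at 24 h, and 0.02 for Mrps7 and 0.05 for Mrps27 at 48 h. Mrps16 with DON at 48 h ran from -0.13 to 0.19 with 1 library left out, the highest without vehicle library C. The cause was not tested. With 4 libraries a group and merged peak lists, small differences and single peaks are limited in precision.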
